A study of Mus musculus with 262 samples.

Results

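The 8 genes described here encode partners and relatives of the sodium pump: the beta subunits Atp1b1 and Atp1b3, the FXYD regulators Fxyd1, Fxyd2, Fxyd4 and Fxyd5, and Atp4a and Atp12a, the catalytic subunits of the gastric and the non-gastric H,K-ATPase. They were chosen by symbol, and all 8 were found in every deposited table, out of 47069 genes in the tables of TPM (transcript abundance, corrected for gene length and brought to the same total in every sample) and 24111 genes with read counts. All samples came from kidneys of 2-month-old male mice. The GFP samples were from a strain labelled Atp6v1b1GFP, a name that joins GFP to the gene of a proton pump subunit of intercalated cells. All others were from C57BL/6 mice. Single cells were sorted on DBA (a lectin that binds principal cells), c-Kit (a receptor on intercalated cells), both, or PNA (another lectin) and captured on a microfluidic chip, and the table does not say which sort a cell came from. The authors named 74 principal, 87 type A intercalated, 23 type B intercalated, 19 proximal tubule and 32 non-epithelial cells. Bulk samples comprised 2 sorted on c-Kit, 2 sorted on DBA, 2 of GFP-positive and 2 of GFP-negative cells, and single tubules dissected by hand comprised 11 of the cortical collecting duct (CCD) and 8 of the cortical thick ascending limb (cTAL). The labels name no treatment and no animal for any sample, so p-values measure the spread between these samples, which may be technical.

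The sodium pump, Na,K-ATPase, exports sodium and imports potassium across the basolateral membrane of most renal tubule cells, and so powers much of the salt reabsorption along the nephron. A catalytic alpha subunit carries out transport, a glycosylated beta subunit is needed for folding and delivery to the membrane, and a small FXYD protein tunes the affinity for sodium and potassium. FXYD2 is the gamma subunit of the renal pump, FXYD4 is the corticosteroid hormone-induced factor of the collecting duct and distal colon, FXYD1 is phospholemman of heart and skeletal muscle, and FXYD5 is dysadherin, a membrane protein known to loosen cell adhesion. The 2 H,K-ATPases exchange protons for potassium and are relatives of the sodium pump.

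The FXYD family is named for a stretch of 4 amino acids that stands just before the membrane span, and the results below turn on which of these genes a cell used. The coding sequence around that stretch is shown for the 4 FXYD members, read from the GENCODE M21 transcripts (GRCm38), with the 12 bases of the 4 codons in capitals and 15 bases on each side. Each stretch crosses an intron in the genome, and it lies on the minus strand except in Fxyd2.
Fxyd1: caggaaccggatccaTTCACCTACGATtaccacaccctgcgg
Fxyd2: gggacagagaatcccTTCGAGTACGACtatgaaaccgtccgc
Fxyd4: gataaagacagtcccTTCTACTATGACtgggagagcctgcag
Fxyd5: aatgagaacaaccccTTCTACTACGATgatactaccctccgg
Fxyd2 and Fxyd4 matched at 26 of the 42 bases shown and at 9 of the 12 codon bases. The other pairs matched at 23 to 25 of 42 and at 8 to 10 of the 12 codon bases. Fxyd5 matched both Fxyd1 and Fxyd4 at 10 of the 12. The coding lengths of the transcripts shown were 276 bases for Fxyd1, 192 for Fxyd2, 264 for Fxyd4 and 537 for Fxyd5. In GRCm38, Fxyd5 (chr7:31032722-31042481) and Fxyd1 (chr7:31051678-31057199) lie on chromosome 7 on either side of Fxyd7, with gaps of 31 and 210 bases. Fxyd2 is on chromosome 9 (chr9:45399669-45410278), 3509 bases from Fxyd6, and Fxyd4 is on chromosome 6 (chr6:117933559-117937692).

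The 250 bases upstream of Atp1b1, which was found in nearly every cell, and of Atp4a, which reached 1 TPM in a minority of cells of every type, are shown from RefSeq (GRCm38.p6) with each CG pair in capitals. The Atp1b1 window is chr1:164458356-164458605 on the minus strand and the Atp4a window is chr7:30711959-30712208 on the plus strand. Each lies just outside the GENCODE span of its gene.
Atp1b1: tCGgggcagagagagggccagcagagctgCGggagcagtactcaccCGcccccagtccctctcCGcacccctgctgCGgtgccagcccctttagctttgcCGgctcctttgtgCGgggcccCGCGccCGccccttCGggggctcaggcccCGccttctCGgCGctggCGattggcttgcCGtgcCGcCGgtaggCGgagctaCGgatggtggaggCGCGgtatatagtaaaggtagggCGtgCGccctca
Atp4a: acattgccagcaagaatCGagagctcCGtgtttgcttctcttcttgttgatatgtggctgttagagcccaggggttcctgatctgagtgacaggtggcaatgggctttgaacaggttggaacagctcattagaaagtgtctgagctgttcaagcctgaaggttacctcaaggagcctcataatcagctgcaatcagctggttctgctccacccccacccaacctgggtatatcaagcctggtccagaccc
The Atp1b1 window held 24 CG pairs and was 70.4% G or C, and the Atp4a window held 2 and was 51.2% G or C. RefSeq windows were matched for 6 of the 8 members. Both windows of Atp1b3 held at least 20 CG pairs (24 and 35), a level reached by 17.9% of all 32851 windows, and those of Fxyd1, Fxyd4 and Fxyd5 held 3 each. By the GENCODE spans, the windows of Atp1b3, Fxyd1, Fxyd4 and Fxyd5 lay wholly or partly inside their own genes. The median over all windows was 6 CG pairs, and 37.8% of all windows held 3 or fewer. These counts are a description of the sequence and were not tested against expression.

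Most marker lists were highest in the cells the authors named for them. Summed over 7 principal cell markers (Aqp2 among them), the median was 6135 TPM in principal cells and at most 276 TPM in the other types. Summed type A, type B and proximal tubule markers had medians of 963, 1896 and 1588 TPM in the cells of those names. Summed immune markers (Ptprc, Cd74, C1qa, Lyz2 and Csf1r) had a median of 32789 TPM in the non-epithelial cells and of at most 53.1 TPM in the other types. Traces of other types were common. Of the 74 principal cells, 38 had 100 TPM or more of 4 summed intercalated markers (Atp6v1b1, Atp6v0d2, Foxi1 and Atp6v1g3), and of the 87 type A cells, 71 had 100 TPM or more of the summed principal markers. The non-epithelial cells held a median of 1432 TPM of both marker sets together. The 4 intercalated markers, which leave out Car2, had a median of 108 TPM in principal cells. With Car2 added, as in the list used for bulk samples, the intercalated markers alone had higher medians. These were 3117 TPM in principal, 3016 TPM in non-epithelial and 2227 TPM in proximal tubule cells against 13977 TPM in type A cells. Values are therefore given below also for cells with under 100 TPM of these markers of other types, with Car2 left out. In tubules, principal markers summed to between 17420 and 35889 TPM in CCD and between 38.4 and 179 TPM in cTAL, and thick ascending limb markers to between 33613 and 53916 TPM in cTAL and between 53.5 and 701 TPM in CCD.

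In single cells, Fxyd4 was highest in the principal cells. Fxyd2 had its highest medians in the intercalated and proximal tubule cells, although it was found in every type. These are descriptions without a test, because each cell type counts as 1 sample, and TPM gives no depth. A gene is called detected in a cell at 1 TPM or more, and SDs are over cells. Fxyd4 was detected in 74 of 74 principal cells, from 561 TPM in the lowest cell to 16003 TPM in the highest, with a median of 5123 TPM. The other types had medians between 0 and 6.71 TPM, although 62 of 87 type A cells (71.3%, exact Clopper-Pearson 95% interval 60.6% to 80.5%) and 13 of 19 proximal tubule cells held at least 1 TPM. The mean in principal cells, 5518 ± 3425 TPM, exceeded that of the next type, proximal tubule with 925 ± 1809 TPM, by more than either SD. The 4 lower types, with means of 925, 816, 154 and 69.6 TPM in proximal tubule, non-epithelial, type A and type B cells, did not differ from their neighbours in this order by more than the larger SD. In the 36 principal cells with under 100 TPM of intercalated markers the Fxyd4 median was 5635 TPM. In the type A and type B cells with under 100 TPM of principal markers the mean of Fxyd4 was 7.31 TPM (16 cells) and 0.0263 TPM (8 cells). In the proximal tubule and non-epithelial cells with under 100 TPM of principal and intercalated markers together it was 1.32 TPM (8 cells) and 6.09 TPM (9 cells). The part of other cells' transcripts in the Fxyd4 values of these types was not tested.

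**Figure D1:**
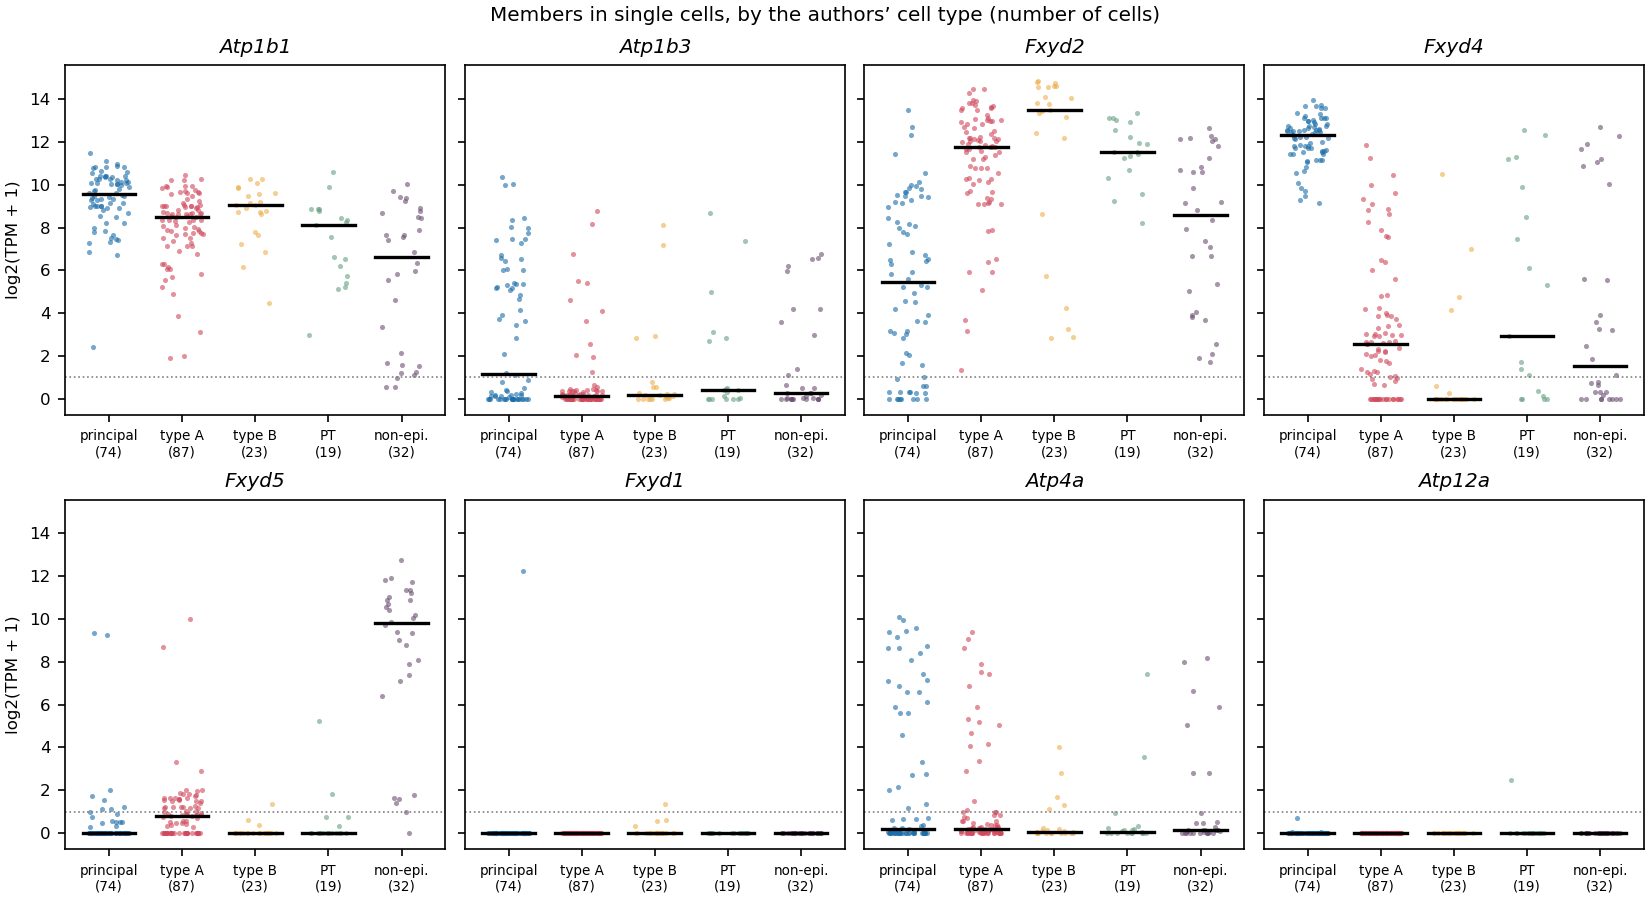
Level of each of the 8 genes in single cells, as log2(TPM + 1), by the authors' cell type with the number of cells in brackets (PT, proximal tubule; non-epi., non-epithelial). Points are cells, black lines are medians and the dotted line is 1 TPM. Fxyd4 was high in all 74 principal cells, Fxyd2 was found in all cells of the other 4 types, Fxyd5 was high in the non-epithelial cells, and Fxyd1 and Atp12a lay at the bottom in nearly all cells.

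Fxyd2 was lowest in the principal cells. It was detected in all 87 type A, 23 type B, 19 proximal tubule and 32 non-epithelial cells, and in 57 of 74 principal cells (77.0%, 95% interval 65.8% to 86.0%). The medians were 11451 TPM in type B, 3451 TPM in type A, 2950 TPM in proximal tubule, 387 TPM in non-epithelial and 42.8 TPM in principal cells. The means followed the same order (13079, 5139, 4264, 1419 and 571 TPM), and no neighbours in it differed by more than the larger of their SDs. With few markers of other types, the mean was 22069 TPM in 8 type B, 6963 TPM in 8 proximal tubule, 4662 TPM in 16 type A, 978 TPM in 9 non-epithelial and 277 TPM in 36 principal cells, which puts proximal tubule above type A. The principal cells therefore did not exceed the non-epithelial cells, a group high in immune markers, in the share of cells with Fxyd2 or in its level. Within type B the gene ranged from 6.09 to 29274 TPM, with 17 of 23 cells at 1000 TPM or more. The 8 type B cells with under 100 TPM of principal markers had a median of 24512 TPM, and the other 15 had 5433 TPM. In principal cells the level differed along the columns of the deposited table. It was detected in 20 of the first 37 principal columns and in all of the last 37, with medians of 1.97 and 115 TPM, while Fxyd4 had medians of 4836 and 5626 TPM there. The order of the columns is not explained in the labels, so its part in this difference was not tested. Fxyd4 in type A cells differed in the same manner, detected in 18 of the first 43 columns and in 44 of the last 44. In type B cells the Fxyd2 median was 399 TPM in the first 11 columns and 20964 TPM in the last 12, so type B ranked below type A (3568 TPM) in the first columns and above it (3448 TPM) in the last. Most of the 8 type B cells with under 100 TPM of principal markers stood in those last 12 columns. The split by markers and the column order thus overlap, and their separate parts were not tested.

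Both genes reached 1000 TPM in 5 of 74 principal, 4 of 87 type A, 0 of 23 type B, 2 of 19 proximal tubule and 0 of 32 non-epithelial cells. At a level of 100 TPM these counts were 30, 13, 0, 7 and 4. At least 1000 TPM of Fxyd4 with under 100 TPM of Fxyd2 was found in 43 of 74 principal cells. The other types had it in 0 of 87 type A, 1 of 23 type B, 0 of 19 proximal tubule and 4 of 32 non-epithelial cells. The reverse, at least 1000 TPM of Fxyd2 with under 100 TPM of Fxyd4, was found in 54 of 87 type A and 17 of 23 type B cells. It was also found in 12 of 19 proximal tubule and 12 of 32 non-epithelial cells, and in 0 of 74 principal cells. Among the 7 FXYD genes, Fxyd4 was the most abundant in 67 of 74 principal cells (90.5%, 95% interval 81.5% to 96.1%), with Fxyd2 leading in 6 and Fxyd1 in 1. Fxyd2 was the most abundant in 83 of 87 type A cells (95.4%, 88.6% to 98.7%), 21 of 23 type B cells and 15 of 19 proximal tubule cells. The non-epithelial cells were divided, with Fxyd2 leading in 13, Fxyd5 in 11 and Fxyd4 in 8.

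**Figure D2:**
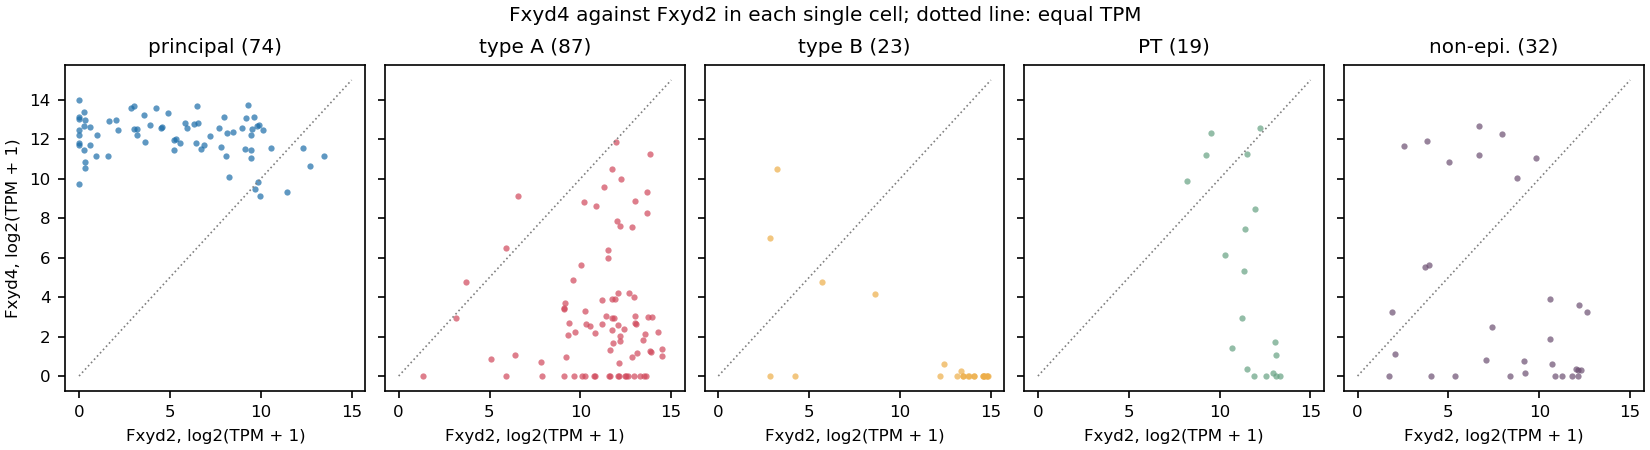
Fxyd4 (vertical axis) against Fxyd2 (horizontal axis) in each single cell, both as log2(TPM + 1), with 1 panel per cell type, its number of cells in brackets and a dotted line at equal TPM. The principal cells form a band at high Fxyd4 across the whole range of Fxyd2, with 67 of 74 above the line, and 83 of 87 type A cells had Fxyd2 as their most abundant FXYD gene.

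Fxyd5 was highest in the non-epithelial cells. It was detected in 31 of 32 of them, with a median of 895 TPM, a mean of 1336 ± 1520 TPM and a highest value of 6848 TPM. The next mean, 17.6 TPM in type A cells, came mostly from few cells, since 2 of 87 held 10 TPM or more. At 1 TPM or more, Fxyd5 was also found in 35 of 87 type A cells (40.2%, 29.9% to 51.3%), at a median of 0.73 TPM. Principal cells had Fxyd5 in 8 of 74, proximal tubule cells in 2 of 19 and type B cells in 1 of 23. In the 9 non-epithelial cells with under 100 TPM of principal and intercalated markers the median was 2339 TPM. Fxyd1 was detected in 1 of 74 principal cells, at 4765 TPM, and in 1 of 23 type B cells, at 1.56 TPM. That principal cell was also the only one of the 74 with Acta2 (smooth muscle actin, 5584 TPM) or Myl9 (a smooth muscle myosin light chain, 5275 TPM), and it held 65.1 TPM of the water channel gene Aqp2 against a principal median of 1821 TPM. Without that cell no principal cell had Fxyd1.

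Atp1b1 was the more abundant of the 2 beta subunit members in every cell type. It was detected in all cells of the 4 epithelial types and in 29 of 32 non-epithelial cells. The means were 879 ± 579 TPM in principal, 557 ± 358 TPM in type B, 413 ± 320 TPM in type A, 327 ± 378 TPM in proximal tubule and 227 ± 282 TPM in non-epithelial cells. No neighbours in that order differed by more than the larger SD. Atp1b3, another beta subunit gene, reached 1 TPM in 38 of 74 principal cells (51.4%, 39.4% to 63.1%). Its share was lower in type A, at 12 of 87 (13.8%, 7.34% to 22.9%). The mean of Atp1b3 was 87.2 ± 231 TPM in principal cells and between 11.3 and 33.4 TPM in the other types. Atp1b1 exceeded Atp1b3 in 71 of 74 principal, 86 of 87 type A, 23 of 23 type B, 19 of 19 proximal tubule and 26 of 32 non-epithelial cells. In the 16 type A cells with few principal markers the mean of Atp1b3 was 0.311 TPM and that of Atp1b1 was 270 TPM. With few markers of other types, the Atp1b1 mean was 844 TPM in 36 principal, 497 TPM in 8 type B and 139 TPM in 8 proximal tubule cells. In 9 such non-epithelial cells it was 29.9 TPM, with a median of 2.01 TPM, against a mean of 304 TPM in the other 23. Among the non-epithelial cells, Atp1b3 was detected in 11 and exceeded Atp1b1 in 6.

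The H,K-ATPase genes were sparse in single cells. Of the principal cells 29 of 74 had Atp4a (39.2%, 28.0% to 51.2%), the highest at 1098 TPM. The other types had it at that level in 18 of 87 type A, 5 of 23 type B, 2 of 19 proximal tubule and 7 of 32 non-epithelial cells. At 0.1 TPM the order of these shares turned, with 40 of 74 principal and 52 of 87 type A cells. Its means were 103 TPM in principal cells and 29.6 ± 106 TPM in type A cells, a difference smaller than either SD over cells. In the 16 type A cells with few principal markers Atp4a was detected in 1. Atp12a was detected in 1 proximal tubule cell, at 4.63 TPM, and in no other cell, although 3 principal cells had values above 0, up to 0.65 TPM. Taking 3 cells as the limit that a count of 0 allows, 0 of 74 principal cells allows a share of up to 4.05%, and 0 of 87 type A cells up to 3.45%, and the upper exact bounds were 4.86% and 4.15%. These intervals and limits cover counting error only.

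The genes most like each member except Atp12a, which was too low to rank, over all cells of the 5 types were ranked by Pearson's r of log2(TPM + 1), taken over 7279 genes that averaged 10 TPM or more. The cells share a capture method and differ in type and depth, so r is a description. Fxyd4 was most like Aqp2 (r = 0.89), followed by Apela (0.86), a peptide hormone gene, and Hsd11b2 (0.83), the enzyme that shields the mineralocorticoid receptor from glucocorticoids. Fxyd5 was most like the immune genes Fcer1g (0.86), Cd53 (0.84) and Cd52 (0.84). Fxyd2 was most like Aldh1l1 (0.61) and Spp1 (0.59), and Atp1b1 was most like Cystm1 (0.63), Ldhb (0.59) and Aif1l (0.56). The highest values for Atp1b3 and Atp4a, 0.38 with Kcnj10 and 0.37 with Cav1, were weak. The genes nearest to Fxyd1, Myl9, Sparcl1 and Acta2 (r of 0.98 to 0.99), rested on the 1 principal cell described above.

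Between the dissected segments, CCD against cTAL, Fxyd4 and Fxyd2 were exchanged. The 11 CCD held between 6006 and 11023 TPM of Fxyd4 (median 7848) and the 8 cTAL between 4.33 and 40.2 TPM (median 14.5). The groups were far apart, and the log2 difference, on the log2(TPM + 1) scale used throughout for TPM, was 9.04 ± 0.35 (SE; limma, Benjamini-Hochberg adjusted p = 3.25e-15). The CCD held between 345 and 1988 TPM of Fxyd2 (median 1149) and the cTAL between 2784 and 6495 TPM (median 3765). Every cTAL lay above every CCD for Fxyd2, and the log2 difference was -1.95 ± 0.26 (adjusted p = 4.10e-06). Groups that do not overlap were found for 5.51% of the 13520 genes tested. In bulk tissue, fewer cells of a type and less RNA per cell cannot be told apart.

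Within each tubule Fxyd4 made up between 80.3% and 96.2% of the summed TPM of the 7 FXYD genes in CCD and between 0.0912% and 1.36% in cTAL, where Fxyd2 made up at least 97.9%. The log2 ratio of Fxyd4 to Fxyd2 in the same tubule, which does not depend on the tubule's total, was 2.96 ± 0.89 (SD, n = 11) in CCD and -8.04 ± 1.42 (n = 8) in cTAL, a difference of 10.99. The exact permutation test gave a two-sided p of 1.32e-05, the smallest that 75582 arrangements can give, and 3.97e-05 after adjustment over the 3 ratios tested. Within CCD the tubules differed in balance, from 4.18 to 31.1 times as much Fxyd4 as Fxyd2.

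**Figure D3:**
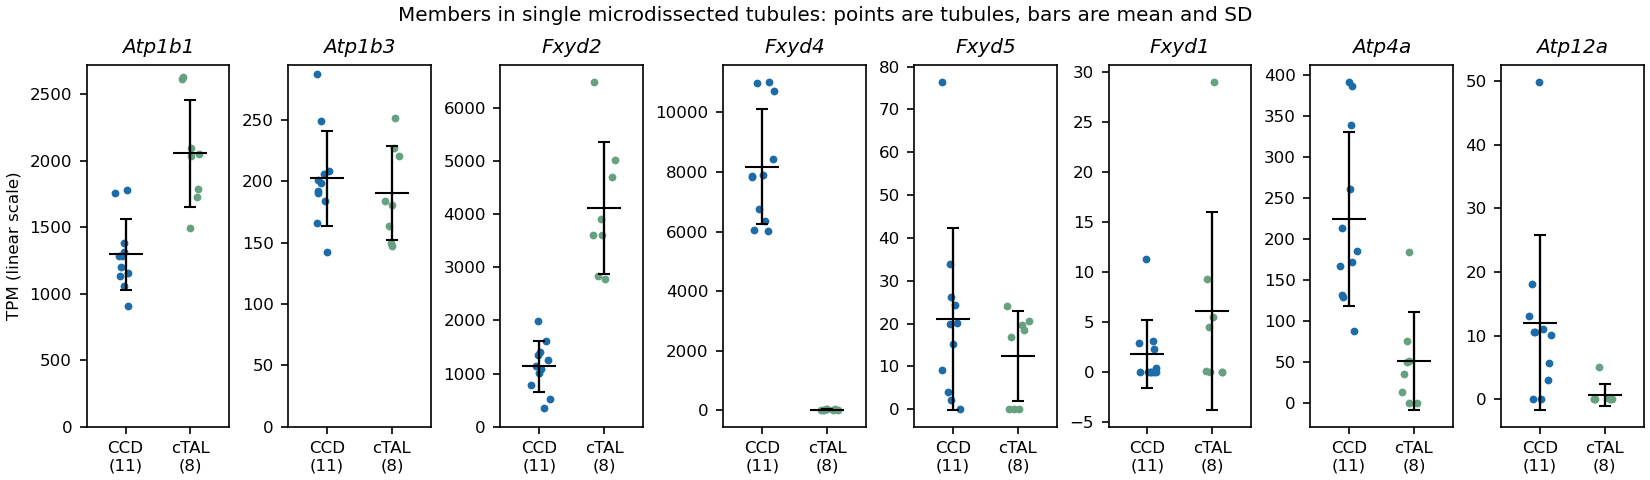
TPM of each of the 8 genes in single dissected tubules on linear axes, with points for tubules and bars for the mean and SD of 11 CCD and 8 cTAL. CCD and cTAL do not overlap for Fxyd2 and Fxyd4, and they overlap for the other 6 genes.

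The beta subunit genes differed in size of change. Atp1b1 ranged from 908 to 1779 TPM in CCD (median 1281) and from 1495 to 2631 TPM in cTAL (median 2045). The ranges overlapped, and the gene was lower in CCD, with a log2 difference of -0.67 ± 0.12 (limma, adjusted p = 3.19e-04). Atp1b3 ranged from 143 to 287 TPM in CCD and from 147 to 252 TPM in cTAL, and its log2 difference of 0.09 ± 0.15 was not past the threshold (adjusted p = 0.742). The log2 ratio of Atp1b1 to Atp1b3 within a tubule was 2.67 ± 0.40 in CCD (SD, n = 11) and 3.42 ± 0.43 in cTAL (n = 8), with an exact permutation p of 0.00172 and 0.00258 after adjustment over the 3 ratios.

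Both H,K-ATPase genes were higher in CCD. Atp4a ranged from 88.8 to 392 TPM in CCD (median 185) and from 0.08 to 185 TPM in cTAL (median 43.2). The cTAL with 185 TPM overlapped the CCD range, and the log2 difference was 3.33 ± 0.76 (limma, adjusted p = 0.00274). Sample weights gave the lowest estimate of the settings run, 2.59, and the call was kept. Atp12a ranged from 0.02 to 49.9 TPM in CCD (median 10.5), and 1 of the 8 cTAL was above 0.1 TPM, at 4.98 TPM. Its log2 difference was 2.63 ± 0.64 (adjusted p = 0.00435), and it depended on the pseudocount, with 4.77 at a pseudocount of 0.1 and 1.31 at 5.

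Fxyd5 and Fxyd1 were low in both segments. Fxyd5 ranged from 0 to 76.5 TPM in CCD (median 19.8) and from 0 to 24.2 TPM in cTAL (median 17.7), with a log2 difference of 0.96 ± 0.85 (limma, adjusted p = 0.494). Its ratio to Fxyd2 was higher in CCD by 2.91 on the log2 scale (exact permutation p = 0.0107, the same after adjustment). Fxyd2 alone had a log2 difference of -1.95, so the ratio does not show a change in Fxyd5. The ratio difference was 3.63 at a pseudocount of 0.1 and 2.47 at 5 (exact permutation p of 0.0296 and 0.00111). Summed immune markers had medians of 295 TPM in CCD and 186 TPM in cTAL. Fxyd1 was listed at 0 in 6 of 11 CCD and 3 of 8 cTAL and reached 11.3 and 29.1 TPM there, with a log2 difference of -0.81 ± 0.67 (adjusted p = 0.462). Of the 8 members, 3 were higher and 2 lower in CCD and 3 did not pass. Over all genes, 18.7% were called, 13.2% higher and 5.50% lower in CCD. The median log2 difference of all genes was 0.31, against which the members' median was 0.52. Quantile normalization moved the median of all genes to -0.03 and the calls from 1782 higher and 744 lower to 1221 and 1244, and kept the 5 calls of members.

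**Figure D4:**
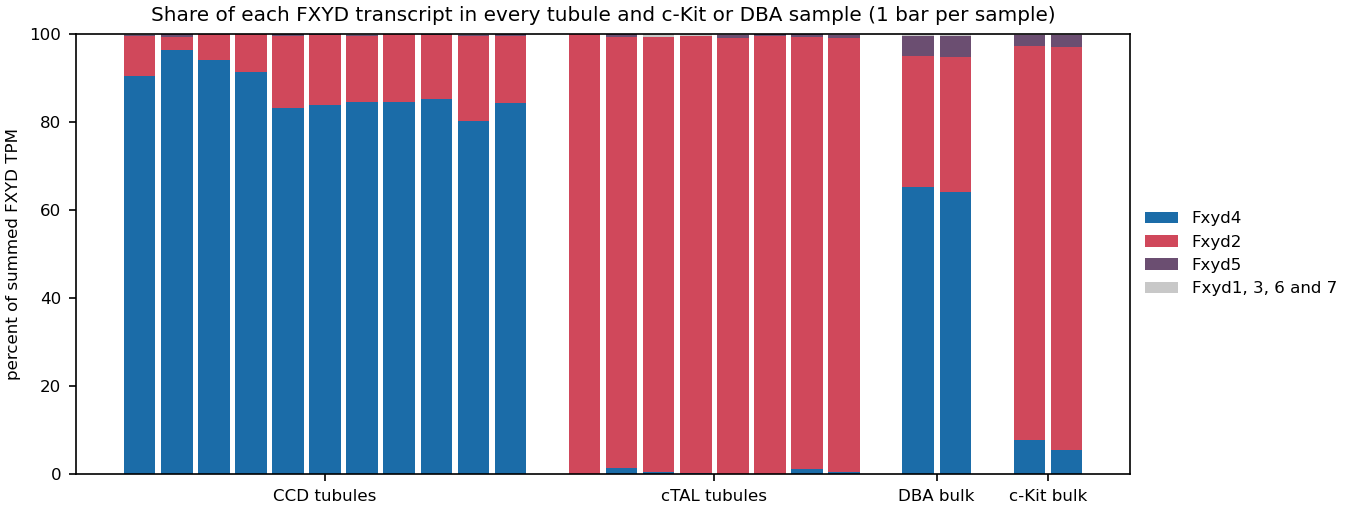
Share of Fxyd4, Fxyd2, Fxyd5 and the other 4 FXYD genes in the summed FXYD TPM of each tubule and each c-Kit or DBA sample, with 1 bar per sample on a linear axis from 0 to 100%. Fxyd4 takes at least 80.3% in every CCD, at most 1.36% in every cTAL, 64.2% and 65.3% in the DBA samples and 5.57% and 7.74% in the c-Kit samples.

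Between cells sorted on c-Kit and cells sorted on DBA, Fxyd4 and Fxyd2 again lay at opposite ends. Summed type A markers (Slc4a1, Aqp6, Dmrt2, Kit and Adgrf5) were 3550 and 3566 TPM in the c-Kit and 79.0 and 94.5 TPM in the DBA samples. Summed principal markers were 2258 and 3032 TPM in c-Kit and 18403 and 21099 TPM in DBA. Type B markers were also higher in c-Kit (1616 and 1633 TPM against 159 and 178). Proximal tubule markers were lower in c-Kit (1437 and 1602 TPM against 3114 and 3206). The part of these cell types in the differences of the members was not tested. Fxyd4 was 442 and 339 TPM in the c-Kit samples and 3952 and 4074 TPM in the DBA samples, a log2 difference of -3.37 ± 0.12 (SE; limma, adjusted p = 7.46e-06). Fxyd2 was 5110 and 5576 TPM in c-Kit and 1799 and 1934 TPM in DBA, higher in c-Kit by 1.52 ± 0.07 (adjusted p = 2.21e-05). Both genes separated the sorts, as did 73.9% of all genes tested with 2 samples a group.

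The beta subunits went in opposite directions. Atp1b3 was 87.9 and 79.6 TPM in the c-Kit and 248 and 239 TPM in the DBA samples, a log2 difference of -1.53 ± 0.07 (limma, adjusted p = 1.81e-05). Atp1b1 was 1274 and 1297 TPM in c-Kit and 1065 and 1067 TPM in DBA. Its difference of 0.27 ± 0.05 passed the threshold (adjusted p = 0.00808) but was small, and it did not pass under quantile normalization (0.12, adjusted p = 0.183), without a variance trend (adjusted p = 0.0617), or without c-Kit replicate 2, DBA replicate 1 or DBA replicate 2 (adjusted p of 0.0517, 0.0555 and 0.0567).

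The other 4 members were lower in the c-Kit samples. Atp4a was 232 and 217 TPM in c-Kit and 337 and 301 TPM in DBA (log2 difference -0.50 ± 0.08, limma adjusted p = 0.00220). Atp12a was 2.11 and 3.07 TPM in c-Kit and 12.7 and 10.5 TPM in DBA (-1.82 ± 0.20, adjusted p = 5.45e-04), with -1.13 at a pseudocount of 5. Fxyd5 was 144 and 157 TPM in c-Kit and 271 and 310 TPM in DBA (-0.94 ± 0.08, adjusted p = 2.38e-04). Summed immune markers were 4404 and 4543 TPM in c-Kit and 11736 and 12322 TPM in DBA, and their part in the Fxyd5 difference was not tested. Fxyd1 was 11.3 and 13.7 TPM in c-Kit and 28.8 and 28.3 TPM in DBA (-1.13 ± 0.12, adjusted p = 5.03e-04), and the 3 stromal markers did not move together. Pdgfrb was 3.91 to 4.14 TPM in c-Kit and 10.1 to 10.6 TPM in DBA, Dcn was 31.0 to 35.6 TPM in c-Kit and 8.85 to 9.73 TPM in DBA, and Col1a2 was not called. All 8 members were called, 2 higher and 6 lower in c-Kit, against 44.3% of all 14341 genes (16.1% higher and 28.1% lower). The median log2 difference was -1.04 for the members and -0.11 for all genes. Quantile normalization moved the latter to 0.02 and the calls over all genes from 2315 higher and 4033 lower to 3055 and 3072.

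In GFP-positive against GFP-negative cells, the H,K-ATPase genes and Fxyd4 were higher and Fxyd2 and Fxyd5 lower. Values are read counts scaled to the reads in genes (CPM), which compare samples and not genes, with 35530885 to 40815091 reads in genes per sample. The GFP-positive samples had more of the summed intercalated markers (3401 and 4850 CPM against 216 and 261) and fewer of the summed proximal tubule markers (1875 and 3070 CPM against 14406 and 16192). They also had more of the summed distal convoluted and connecting tubule markers (2618 and 3814 CPM against 140 and 216), with all 5 called higher. Summed thick ascending limb markers were 10036 and 15499 CPM against 7757 and 8712. These 5 markers did not move together, with 1 called higher, 1 called lower and 3 not called. The part of these cell types in the differences of the members was not tested. Atp4a was 243 and 222 CPM in GFP-positive and 38.0 and 45.7 CPM in GFP-negative cells, a log2 difference of 2.37 ± 0.21 (SE; edgeR quasi-likelihood test, adjusted p = 9.52e-05). Atp12a had 84 and 62 counts in the GFP-positive and 5 and 0 in the GFP-negative samples. Its log2 difference of 4.89 ± 1.16 (edgeR, adjusted p = 0.0127) rested on few counts. It was 9.15 without GFP-negative replicate 1, 4.02 without GFP-negative replicate 2 and 4.63 without GFP-positive replicate 1, where it no longer passed (adjusted p = 0.0888). The authors' RPKM table lists Atp12a at 0 in 3 of these samples and at 0.351 in 1 GFP-positive sample.

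Fxyd4 was 111 and 282 CPM in GFP-positive and 69.3 and 48.5 CPM in GFP-negative cells. The groups did not overlap, as for 69.2% of genes, and the log2 difference was 1.67 ± 0.38 (edgeR, adjusted p = 0.0108). Without GFP-positive replicate 2 it was 0.83 (adjusted p = 0.0230). Summed principal markers were also higher, 1121 and 1712 CPM against 463 and 504 CPM, and their part in the Fxyd4 difference was not tested. Fxyd2 was 534 and 468 CPM in GFP-positive and 735 and 830 CPM in GFP-negative cells, a log2 difference of -0.75 ± 0.20 (adjusted p = 0.0228). It did not pass without GFP-negative replicate 2 (-0.53, adjusted p = 0.155), without GFP-positive replicate 2 (-0.67, 0.0771) or with limma on the authors' RPKM values (-0.51, 0.308). By those RPKM values, which correct for gene length, Fxyd2 was the main FXYD transcript on both sides, with 86.9% and 92.0% of the FXYD sum in GFP-positive and 94.4% and 96.9% in GFP-negative cells, and Fxyd4 made up 7.43% to 12.7% and 2.19% to 3.13%.

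Fxyd5 was 2.53 and 2.71 CPM in GFP-positive and 37.6 and 14.3 CPM in GFP-negative cells (log2 difference -3.35 ± 0.42, edgeR adjusted p = 4.89e-04), and it was -2.65 without GFP-negative replicate 1 and -2.42 with limma on RPKM. Summed immune markers were 95.9 and 114 CPM in GFP-positive and 481 and 1260 CPM in GFP-negative cells, and their part in this difference was not tested. Atp1b1 was 6479 and 5552 CPM in GFP-positive and 3659 and 3143 CPM in GFP-negative cells (0.74 ± 0.22, adjusted p = 0.0330). Its call was lost without GFP-negative replicate 1, GFP-negative replicate 2 or GFP-positive replicate 1 (adjusted p between 0.0926 and 0.103) and with limma on RPKM (0.0820). Atp1b3 (140 and 173 CPM against 221 and 169, adjusted p = 0.138) and Fxyd1 (8 and 8 counts against 36 and 34, adjusted p = 0.103) did not pass. In all, 4 members were higher, 2 lower and 2 not called, where 32.6% of all 15671 genes were called, 15.2% higher and 17.3% lower. The median log2 difference was 0.17 for the members and 0.02 for all genes.

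**Figure D5:**
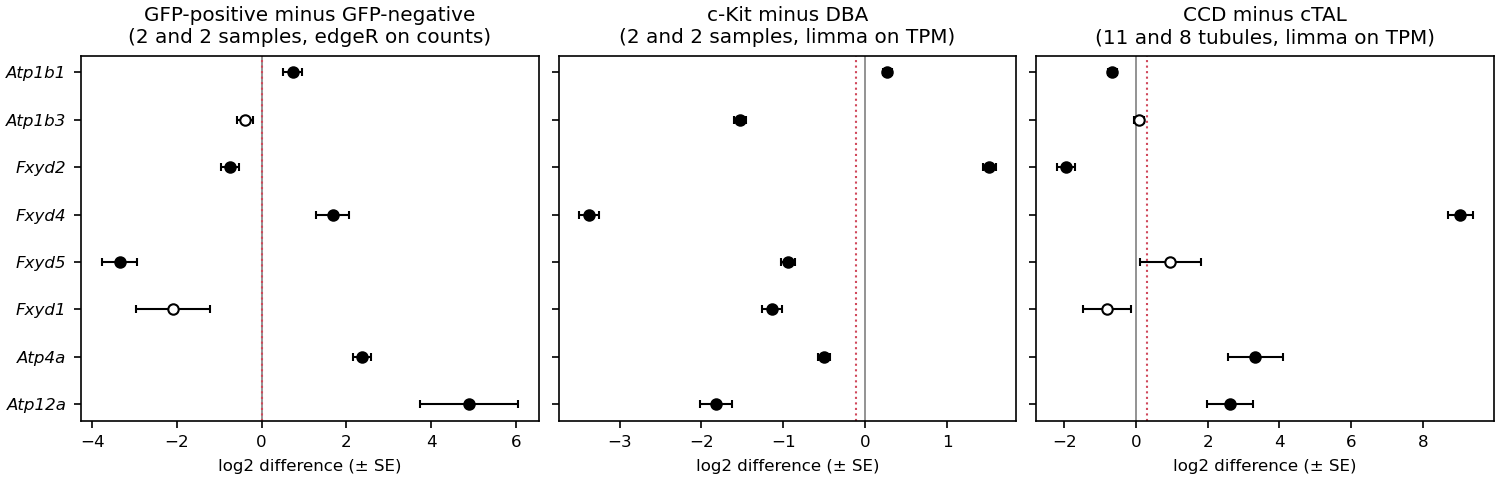
Log2 difference of each of the 8 genes in the 3 comparisons, with bars for the SE. Filled points passed an adjusted p of 0.05, open points did not, the grey line is 0 and the red dotted line is the median of all genes tested. Fxyd4 lies at 9.04 in the tubules, at -3.37 for c-Kit minus DBA and at 1.67 for GFP-positive minus GFP-negative, and Fxyd2 lies on the other side of 0 from Fxyd4 in each.

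Related genes are given by their counts. Shares called over all genes were 18.7% in the tubules, 44.3% for c-Kit and DBA and 32.6% for GFP, and several counts below lie near them. Of 10 other genes of pump subunits, H,K-ATPase subunits and FXYD proteins, 4 were tested in the tubules (1 higher in CCD, 1 lower), 6 in the c-Kit and DBA samples (2 higher in c-Kit, 1 lower) and 7 in the GFP samples. In the GFP samples edgeR called 0 of the 7, with 2 at an unadjusted p under 0.05, and DESeq2 and edgeR without a filter on low counts called 1 of 9, Fxyd3. With the replicate number as a block edgeR called 2 of 7, Fxyd3 (log2 difference 3.95, adjusted p = 0.0113) and Atp1b2 (1.03, adjusted p = 0.0299). Their median log2 differences were -0.18, 0.24 and -0.02, against 0.31, -0.11 and 0.02 for all genes. Fxyd3, a further FXYD gene, was 4.61 and 6.09 TPM in the c-Kit and 0.63 and 1.01 TPM in the DBA samples (log2 difference 1.80 ± 0.23, limma adjusted p = 0.00111) and was higher in CCD (mean 6.42 ± 4.70 TPM, n = 11) than in cTAL (0.233 ± 0.481 TPM, n = 8; 2.27 ± 0.48, adjusted p = 0.00142). Atp1b2, a further beta subunit gene, was 4.68 and 4.86 TPM in c-Kit and 9.48 and 10.7 TPM in DBA (-0.94 ± 0.15, adjusted p = 0.00260) and did not pass without DBA replicate 2 (adjusted p = 0.0555).

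Of 17 genes of sodium and potassium flow, such as channel, transporter and mineralocorticoid response genes, 7 of 13 tested were higher and 2 lower in CCD, 1 of 13 was higher and 9 lower in c-Kit, and 10 of 15 were higher and 2 lower in GFP-positive cells, with median log2 differences of 1.50, -1.44 and 1.83. Scnn1b, a subunit of the epithelial sodium channel, was 1243 ± 237 TPM in CCD (n = 11) and 0.854 ± 0.447 TPM in cTAL (n = 8), a log2 difference of 9.41 ± 0.18 (limma, adjusted p = 2.54e-20). Of 16 other cation pumps of the same ATPase class, 2 of 9 tested were higher and 1 lower in CCD, 0 of 9 higher and 5 lower in c-Kit, and 5 of 13 higher and 5 lower in GFP-positive cells. Atp2a2, the calcium pump of the endoplasmic reticulum, was lower in CCD (36.0 ± 17.8 TPM against 89.7 ± 36.6 TPM, log2 difference -1.36 ± 0.32, limma adjusted p = 0.00361) and in GFP-positive cells (-0.98 ± 0.20, edgeR adjusted p = 0.00579). Atp2b4, a calcium pump of the plasma membrane, was higher in GFP-positive cells, with 83.0 and 59.7 CPM against 5.17 and 13.2 CPM (2.90 ± 0.37, adjusted p = 5.19e-04).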

How the data were processed

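Polyadenylated RNA was sequenced, per the labels. The deposited TPM tables cover single cells captured on the C1 microfluidic system, c-Kit and DBA sorted samples and dissected tubules; STAR 2.5.1b, RSEM 1.2.31, Seurat and GRCm38.p5 are named in the submitters' processing notes, without their roles. The GFP samples have deposited read counts made with HTSeq-count on RefSeq mm10 and the authors' RPKM values, per the file headers and names. No source used here gives the strand mode, so Atp1b1 (overlapped by Nme7 on the other strand) and Atp12a (overlapped by an antisense gene) are uncertain, as are Fxyd4 and Fxyd5, which contain a microRNA gene each. Reads in no feature (66.5% to 72.7% of all listed) were left out.

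Counts were compared with edgeR 4.0.16 (TMM, filterByExpr, quasi-likelihood F test) and TPM with limma 3.58.1 on log2(TPM + 1), with a variance trend and a mean of at least 1 TPM, both in R 4.3.3. P-values were adjusted by Benjamini-Hochberg over all genes of a comparison and called under 0.05. All 8 members passed these filters in each comparison. Ratios within tubules were compared by exact permutation, and shares of cells have exact Clopper-Pearson 95% intervals (scipy 1.17.1). TPM keeps no depth. The cell types are the authors'; no doublet caller was run, since TPM values are not molecule counts. Scripts were tested on simulated counts and TPM values.

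Samples were grouped by title. Columns of the single-cell, tubule and RPKM tables show a group but no title number. Alternatives were other tools (DESeq2 1.42.0), filters, pseudocounts, scalings, blocks and samples left out; those built on the m numbers of the tubule columns, on FXYD shares and on markers of other cell types were added after seeing the data. The members and the gene lists were chosen with earlier results of these data known. Named genes are the 8 members, at most 4 genes of each of 3 related lists, and the 3 genes nearest to each member with a mean of at least 10 TPM in a cell type; Acta2, Myl9 and Aqp2 in the cell with Fxyd1, and the stromal markers beside Fxyd1, were added after their values were seen. Values of 1 gene of the pump family list, which stays in the counts and medians, and of 1 gene near Fxyd2 are not reported here. All deposited columns of samples were used, and no columns of a table were identical.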

Additional observations from a re-analysis of the deposited data

Results flagged for a closer look

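In the 8 cTAL tubules, where 1 group per gene was examined for a value far from the others, 3 of the 8 genes had such a tubule. How often chance gives such a tubule is not known for values like these, several of which lay at or near 0. Atp4a reached 184.72 TPM in a tubule whose nearest neighbour had 75.69 TPM. Atp12a reached 4.98 TPM in another tubule, and the next highest value was 0.1 TPM. Fxyd1 reached 29.05 TPM in yet another, and the next highest was 9.3 TPM. No cause was tested.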

How the results depend on the processing

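Over the alternatives in which a gene was tested, the tubule calls of Atp1b1, Atp4a, Atp12a, Fxyd2 and Fxyd4 and the c-Kit calls of all members but Atp1b1 were kept. Atp12a did not enter the fits that asked for a mean of at least 10 TPM. Those fits called 4 members in the tubules and 7 for c-Kit and DBA. The Atp1b3 tubule difference, not called, changed sign under quantile normalization (-0.10). Limma on RPKM called 1639 genes and 3 members in the GFP samples, against 5101 and 6. Leaving out a bulk sample gave 3458 to 5701 genes called for c-Kit and DBA (3600 without DBA replicate 1, 3458 without DBA replicate 2, against 6348). Sample weights gave 4401 genes called in the tubules, against 2526. With a replicate block, 5897 genes and 6 members were called in the GFP samples and 6271 genes and 8 members for c-Kit and DBA; deviations of samples with the same number correlated at 0.135 and 0.0264, and with 2 pairs each the numbers were not taken as pairs. The RPKM headers name a first and a second experiment for each GFP group, and the count columns only number their samples. The block added the calls of Fxyd3 and Atp1b2 given above. No paired analysis was possible by title number for tubules and cells because their columns do not carry those numbers. With the m number of the tubule columns (not defined in the labels; correlations 0.00399 to 0.145) as a block, 2588 genes were called, and with means per m number 1788; both kept the 5 member calls. By those means the adjusted p of the 3 ratios was 0.0163 for Atp1b1 to Atp1b3, 0.00175 for Fxyd4 to Fxyd2 and 0.0163 for Fxyd5 to Fxyd2. At 0.1 TPM in place of 1 TPM, Atp1b3 was detected in 50 of 74 principal and 42 of 87 type A cells and Atp4a in 40 and 52; at 10 TPM, Fxyd2 was detected in 47 principal and Fxyd4 in 28 type A cells. The causes were not tested.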
